A study of Mus musculus with 64 samples.

Results

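The B lineage genes described here were Cd79a, Cd79b, Vpreb1, Igll1, Rag1, Ebf1, Pax5 and Blnk, 8 of the 23338 genes counted in each library, taken by symbol from a list of known roles. The rule itself uses no threshold on a measured value, but the list was drawn up with earlier results of these data known. They were followed in the livers of C57BL/6 mice, 24 from fetuses of late gestation (12 male, 12 female) and 24 from adults of 15 to 20 weeks (12 male, 12 female), none carrying a transgene or given a treatment. Individual eight-cell embryos (n = 12, 6 male, 6 female) and ES cell lines kept in 2i medium, which holds inhibitors of the mitogen-activated protein kinase pathway and of glycogen synthase kinase-3 (n = 4, 2 male, 2 female), gave levels outside the liver. Liver and ES cell RNA was made into stranded total RNA libraries, whereas the cDNA of embryos was amplified by a single-cell protocol. Which fetuses were littermates is not given in the sources used here, so the spread between livers includes any litter effect. The tests take the livers as independent, which littermates may not be.

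B lymphocytes are made in the fetal liver before the bone marrow takes over this role. Early progenitors turn on the transcription factors EBF1 and PAX5, cut and join the immunoglobulin heavy chain gene with the RAG recombinase, and display the new heavy chain with a surrogate light chain, made of VPREB1 and IGLL1, as the pre-B cell receptor. The CD79A and CD79B chains carry the signal of that receptor, and of the later B cell receptor, into the cell, where the adaptor BLNK links it to downstream enzymes.

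The sequence upstream of the start of the RefSeq transcript is shown for 3 of the genes, those whose CAGGTG match lies outside every exon that GENCODE vM21 gives for the gene. Windows of 250 bases before the start (RefSeq, GRCm38.p6) were at hand for 7 of the 8 genes, all but Cd79b, and were searched on both strands for short motifs. CAGGTG, an E-box that E proteins such as TCF3 can bind, was found in the windows of Cd79a, Vpreb1, Igll1, Rag1 and Blnk, that is 5 of 7, against 17.2% of all 32851 windows. It is in capitals below, as CAGGTG or, where it lies on the other strand, as its reverse complement. The Cd79a stretch ends where the first GENCODE exon begins, and all are written 5′ to 3′ on the strand of the gene.
Cd79a, chr7:24897247-24897380, plus strand: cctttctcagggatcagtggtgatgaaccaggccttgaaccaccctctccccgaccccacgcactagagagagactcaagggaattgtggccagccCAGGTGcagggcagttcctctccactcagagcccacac
Igll1, chr16:16863986-16864235, minus strand: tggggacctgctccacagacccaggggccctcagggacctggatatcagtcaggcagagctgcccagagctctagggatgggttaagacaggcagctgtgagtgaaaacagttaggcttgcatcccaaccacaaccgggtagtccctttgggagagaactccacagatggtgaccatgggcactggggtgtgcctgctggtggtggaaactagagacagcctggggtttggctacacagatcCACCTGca
Rag1, chr2:101649533-101649782, minus strand: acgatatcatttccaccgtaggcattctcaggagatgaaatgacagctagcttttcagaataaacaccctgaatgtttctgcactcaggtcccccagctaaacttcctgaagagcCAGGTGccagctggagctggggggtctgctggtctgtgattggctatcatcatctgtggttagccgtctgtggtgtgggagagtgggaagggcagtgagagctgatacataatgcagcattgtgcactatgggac

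Among the other letters searched, GGAAGT (bound by ETS factors) lay in the windows of 4 of the 7 genes against 19.7% of all windows, and TGTGGT (RUNX factors) in 3 of 7 against 14%. CCCNNGGG, the core of an EBF1 site, was found only in the Igll1 window, against 11.8% of all windows, and ATGCAAAT, the octamer bound by POU factors, only in that of Blnk, against 1.6%. CAGCTG was present in 2 of 7 (13% of all windows), CCAAT in 2 of 7 (33.8%) and TATAAA in 0 of 7 (12.4%). In Rag1 the CAGCTG match starts 1 base after the end of the CAGGTG match. For all motifs, CAGGTG included, a gene was counted if any of its windows held the letters, whereas the shares are of single windows. The RUNX and ETS matches of Ebf1 lay in different windows. All matches describe letters in a window and not bound sites.

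Reads counted on genes ranged from 5145371 to 8499603 in fetal livers and from 1567583 to 4757610 in adult livers. Levels are given as CPM, reads scaled to a library size of 1e6 after TMM scaling over the 48 livers. The lowest level that 3 reads can show, before TMM scaling, was 0.353 to 0.583 CPM in fetal and 0.631 to 1.91 CPM in adult livers, for counting error only. The liver label fitted the hepatocyte markers, which were called higher in the adult for 6 of 6 genes (summed level 20090 to 26900 CPM in fetal and 35910 to 55941 CPM in adult livers).

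Female fetal liver 14 stood apart. Its median correlation with the other female fetal livers was 0.96, whereas the other 11 lay between 0.984 and 0.991. Genes known for the intestine, chosen after their values were seen, were high in it, with Lct (lactase) at 421 CPM against 0.296 to 1.89 CPM in the other 23 fetal livers, Alpi (intestinal alkaline phosphatase) at 137 CPM against 0 to 0.113 CPM, and Cdh17 at 190 CPM against 0 to 0.495 CPM. It was below each of the other 11 female fetal livers for 7 of the 8 B lineage genes and above each of them for Blnk, so results that rest on it are also given without it.

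All 8 B lineage genes were lower in adult than in fetal liver. edgeR's quasi-likelihood test with Benjamini-Hochberg adjustment tested 12875 genes, of which 35.3% were called higher in fetal liver (adjusted p under 0.1 and absolute log2 above 0.5), and the count of 8 of 8 stands against that share. With library totals in place of TMM, the calls over all genes went from 4543 lower and 4079 higher in adult liver to 6942 and 2368, and the 8 stayed lower. Every fetal liver lay above every adult liver for 6 of the 8 genes, against 22.9% of all genes tested. The 8 genes passed the filter on low counts because of the fetal livers, since 0 of the 8 passed it in adult livers alone. Their summed level was 69.8 to 143 CPM in fetal livers (median 114) and 1.31 to 9.63 CPM in adult livers (median 3.97). The median log2 (adult/fetal) of the 8 was −4.20, with genes without an adult read at their bound, and that of all genes tested was −0.05. In whole tissue, fewer cells of a type and less RNA per cell cannot be told apart.

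**Figure D1:**
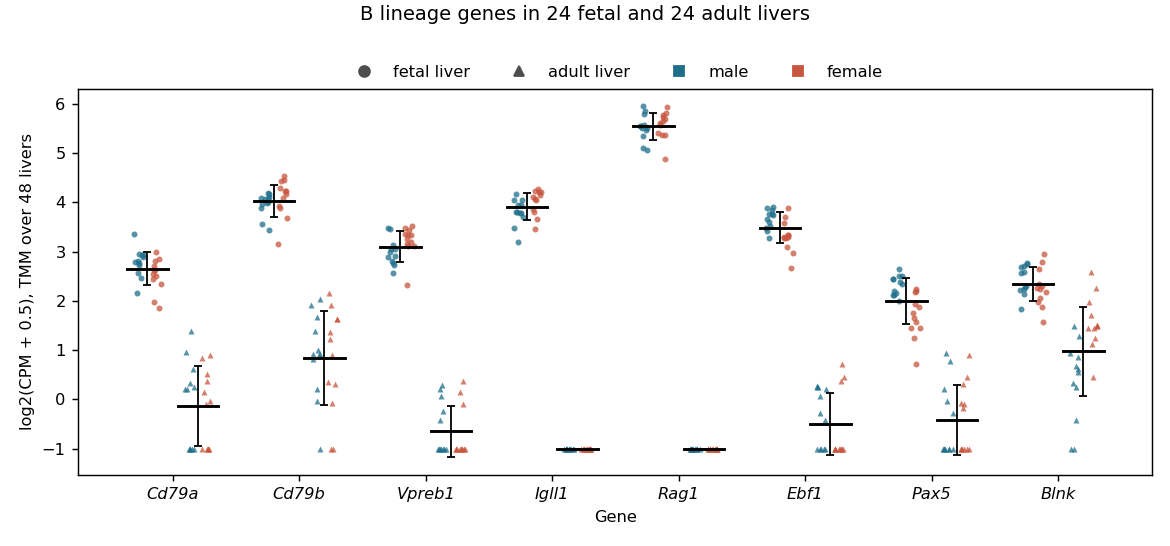
Level of each B lineage gene in 24 fetal (circles) and 24 adult (triangles) livers, as log2(CPM + 0.5), with males in blue and females in red. Horizontal bars are means and error bars the SD over 24 livers. Igll1 and Rag1 sit at the bottom of the scale in every adult liver, and the fetal and adult ranges overlap for Pax5 and Blnk only.

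Cd79a and Cd79b, the signalling chains of the B cell receptor, kept a few reads in adult liver. Cd79a (chromosome 7, 24897381 to 24902197, plus strand) was at 3.11 to 9.79 CPM in fetal livers, with a median of 6.08, and at 0 to 2.12 CPM in adult livers, with a median of 0.54. Reads were seen in 14 of 24 adult livers, at most 6 in a library. Its log2 (adult/fetal) was −3.33 ± 0.22 (SE), with an adjusted p of 1.98e-20. Cd79b (chromosome 11, 106311341 to 106314762, minus strand) was at 8.42 to 22.7 CPM in fetal livers, median 16.4, and at 0 to 3.96 CPM in adult livers, median 1.39, with a read in 21 of 24. It fell by 3.14 ± 0.17 on the log2 scale (adjusted p = 1.48e-24). For both chains the lowest fetal liver was above the highest adult liver.

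The surrogate light chain genes lie side by side on chromosome 16. Vpreb1 (16868403 to 16870843, minus strand) ranged from 4.50 to 11.04 CPM in fetal livers, with a median of 8.19, and from 0 to 0.792 CPM in adult livers, of which 16 of 24 had no read. Its log2 (adult/fetal) was −5.06 ± 0.22 (adjusted p = 2.23e-28), from 12 reads in all adult livers together. The gene overlaps Top3b on the opposite strand and has a near-identical copy, Vpreb2, so its counts are uncertain. Vpreb2 had 202 reads over the fetal livers and 0 over the adult livers. Igll1 (16860671 to 16863985, minus strand) was at 8.69 to 18.95 CPM in fetal livers, with a median of 14.97, and had 0 reads in each of the 24 adult livers. Against a floor of 3 reads over the adult group, which is 0.0541 CPM, it was at least 274-fold lower in adult than in fetal liver. At the lowest fetal level, the shallowest adult liver would have given 11.2 reads of Igll1.

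Rag1, which encodes the catalytic chain of the V(D)J recombinase (chromosome 2, 101638282 to 101649501, minus strand), had the most reads of the 8 genes. Its fetal levels ran from 28.9 to 61.7 CPM, with a median of 46.7, on 232 to 528 reads a library. No adult liver had a read, so that Rag1 was at least 872-fold lower in adult liver against the same floor. The shallowest adult liver would have given 37.4 reads at the lowest fetal level. B230118H07Rik overlaps Rag1 on the same strand, and how reads of the overlap were counted is not given in the sources used here. Rag2, the partner of Rag1, followed it with 16 to 44 reads a fetal liver and 0 in each adult liver, at least 66.3-fold lower.

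The transcription factor genes fell to a few reads. Ebf1 (chromosome 11, 44617317 to 45008091, plus strand; antisense Gm12158) was at 5.88 to 14.5 CPM in fetal livers, median 10.8, and at 0 to 1.15 CPM in adult livers, of which 10 of 24 had a read. It fell by 5.11 ± 0.21 on the log2 scale (adjusted p = 5.90e-30). Pax5 (chromosome 4, 44524757 to 44710487, minus strand; antisense Gm12462) had the lowest fetal levels, 1.15 to 5.76 CPM with a median of 3.90, and 0 to 1.41 CPM in adult livers, 11 of 24 with a read. Its log2 (adult/fetal) was −3.34 ± 0.26 (adjusted p = 2.19e-17), and 21 of 24 adult livers were below every fetal liver. Without female fetal liver 14, which held the lowest fetal Pax5 value, it was −3.37 ± 0.25.

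Blnk, the adaptor (chromosome 19, 40928927 to 40994535, minus strand), changed least. It was at 2.46 to 7.26 CPM in fetal livers, with a median of 4.39, and at 0 to 5.50 CPM in adult livers, with a median of 1.77 and a read in 22 of 24. Its log2 (adult/fetal) was −1.40 ± 0.19 (adjusted p = 2.90e-09), and 20 of 24 adult livers were below every fetal liver. In male livers alone the log2 was −2.23 ± 0.26 (adjusted p = 1.34e-09), and in female livers alone −0.78 ± 0.22 (adjusted p = 0.00209).

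**Figure D2:**
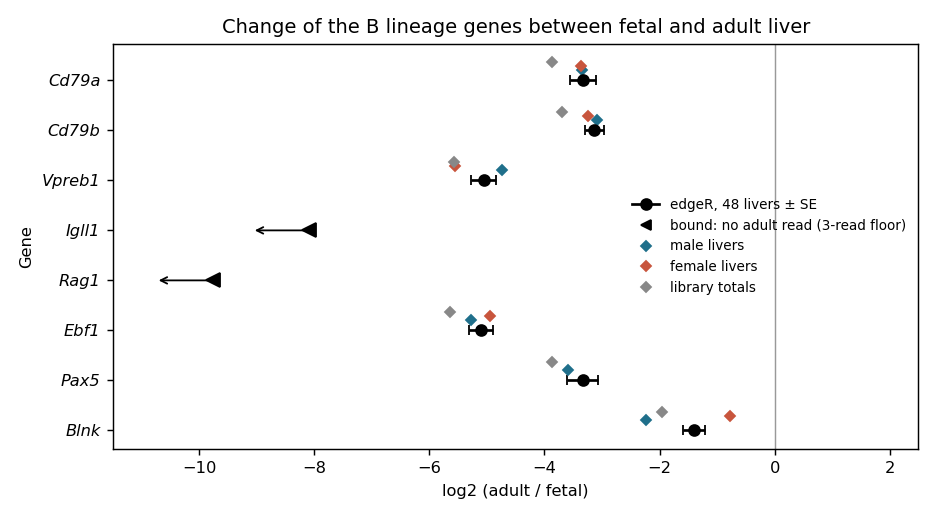
Log2 (adult/fetal) of the B lineage genes. Black circles with bars are the edgeR estimate ± SE over 48 livers, left-pointing triangles with arrows the bounds of Igll1 and Rag1, which had no adult read, and diamonds the estimates in male livers, in female livers and with library totals in place of TMM; Pax5 has no female diamond because it did not pass the filter there. All points lie left of 0, and Blnk, at −1.40, is nearest to it.

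The other genes of the pathway were read from lists chosen by function. Of 13 B cell receptor and pre-B cell receptor genes tested, 9 were called higher in fetal liver, 2 higher in adult liver and 2 not called (median log2 −2.36). Over all genes tested, 35.3% were called higher in fetal liver, and the counts of this list and of those after it stand beside that share. Cd24a, a surface protein of immature B cells that red cell precursors also carry, fell by 7.92 ± 0.13 on the log2 scale (adjusted p = 1.02e-46), and Btk, the kinase downstream of the receptor, by 3.75 ± 0.15 (adjusted p = 8.39e-31). Vpreb3, a chaperone of the pre-B cell receptor, had 1624 reads over the fetal and 3 over the adult livers. Of 8 tested genes of V(D)J recombination and end joining, 4 were called higher in fetal liver and 0 in adult liver (median −0.31), a share near that of all genes. Besides Rag2 these included Xrcc6 and Prkdc, which act in end joining in all cells, at −0.81 ± 0.06 and −0.71 ± 0.06. Dntt, also on this list, did not pass the filter and went the other way, with 7 reads over the fetal and 188 over the adult livers. Of 15 lymphoid transcription factors, 13 were called higher in fetal and 1 in adult liver (median −2.14), with Myb at −9.01 ± 0.15, Bcl11a at −5.73 ± 0.16 and Pou2af1 at −4.78 ± 0.20. Among 8 cytokine receptors and niche signals, 5 were called higher in fetal liver, led by Cxcr4 (−4.17 ± 0.14), Il7r, the receptor of the B progenitor cytokine IL-7 (−4.14 ± 0.19), and Flt3 (−2.49 ± 0.20), and 3 higher in adult liver.

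Genes of mature B cells and plasma cells did not share one direction. Of 13 in the files, 5 were tested, with 2 called higher in fetal and 3 in adult liver. Tnfrsf13c, the BAFF receptor, fell by 3.69 ± 0.23 on the log2 scale (adjusted p = 8.21e-22), and Cd37 by 2.72 ± 0.14. Cd74 and H2-Aa, which serve antigen presentation in B cells, macrophages and dendritic cells alike, were higher in adult liver by 3.64 ± 0.11 and 3.14 ± 0.12. Sdc1 was also higher there, by 3.02 ± 0.06, on 9328 reads over the fetal and 20859 over the adult livers. Which cells gave the reads of these genes was not tested. With Cd37 and Sdc1, all 5 tested genes are named. Of the 8 that were not tested, some more restricted to B cells and plasma cells had more reads over the adult than the fetal livers, although the adult libraries were shallower: Cr2, a complement receptor of mature B cells, 38 against 1, Fcer2a, the low-affinity IgE receptor, 23 against 1, and Igj, the joining chain of secreted antibodies, 102 against 28. These were named after their values were seen. Ighm, Ighd and Igkc, immunoglobulin constant region genes also on the list, matched no gene symbol in the counts, so their levels are not given.

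Genes of other blood cells moved with the B lineage genes. The 6 neutrophil lineage markers were all called higher in fetal liver (summed level 1066 to 2201 CPM in fetal, 0 to 9.77 CPM in adult livers), as were the 6 erythroid markers (3470 to 5414 CPM and 18.7 to 236 CPM), the 4 megakaryocyte markers (67.1 to 181 CPM and 2.06 to 8.53 CPM) and the 6 pan-leukocyte genes (247 to 447 CPM and 48.6 to 127 CPM). Of these lists, Ngp at −12.05, Mpo at −11.52, S100a8 at −8.87, Rhd at −12.53, Slc4a1 at −11.59, Gp1bb at −5.78, Gp9 at −5.71, Pf4 at −5.69, Coro1a at −3.50, Vav1 at −2.36 and Cd53 at −1.92 were among the genes with the widest log2 (adult/fetal). The pan-leukocyte median was −1.79. Of 6 macrophage and Kupffer cell markers, 4 were higher in fetal liver (Marco −2.61) and 2 in adult liver (Vsig4 2.24, Clec4f 1.78). T cell markers summed to 3.25 to 7.97 CPM in fetal and 1.38 to 8.01 CPM in adult livers, with Lck, at −1.58, the 1 of 8 that was tested. The rest had few reads and did not share one direction. Summed over the fetal and over the adult livers, Cd3e had 2 and 11 reads, Cd4 63 and 83, and Cd8a 19 and 26. Cd3d had 71 and 20, Cd3g 109 and 38, Cd247 60 and 26, and Cd5 39 and 19. Of 3 NK cell markers tested, Gzma (−3.0) and Klrb1c (−1.90) were higher in fetal and Klrk1 (1.1) in adult liver. None of 4 plasmacytoid dendritic cell markers, which can share genes with B progenitors, passed the filter (2.05 to 11.2 CPM summed in fetal, 0 to 3.56 CPM in adult livers). The part of any of these cells in the levels of the B lineage genes, or of the other pathway genes such as Myb, was not tested.

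Compared per length, as CPM per kilobase of exon in GENCODE vM21, the fetal medians were 17.2 for Igll1, 11.5 for Cd79b, 10.7 for Vpreb1, 7.06 for Rag1, 4.17 for Cd79a, 2.09 for Blnk, 1.81 for Ebf1 and 0.488 for Pax5. The ranges over 24 livers of neighbours in this order overlapped, except for Ebf1 and Pax5 (0.983 to 2.42 against 0.144 to 0.72). Rag1 led by reads but not by length, with 6608 bases of exon against 870 for Igll1. The surrogate light chain genes and Cd79b thus had the highest levels per length, and the transcription factor genes the lowest.

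In fetal liver, 1 of the 8 genes, Pax5, differed between the sexes. Of 12930 genes tested 4.64% were called in either direction and 3.81% were called higher in males. Pax5 was at 3.50 to 5.76 CPM in males, median 4.67, and 1.15 to 4.25 CPM in females, median 2.77, with a log2 (male/female) of 0.70 ± 0.15 and an adjusted p of 0.000906 (edgeR). Without female fetal liver 14 the log2 was 0.62 ± 0.13 (adjusted p = 0.000737). The ranges overlapped, and the male median was above 12 of 12 female livers. Ebf1 had a log2 of 0.37 ± 0.10 (adjusted p = 0.00898), under the fold threshold, with 9.13 to 14.5 CPM in males and 5.88 to 14.2 CPM in females. Cd79a stood at 0.29 (adjusted p = 0.0846), Blnk at 0.17, Rag1 at −0.02, Cd79b at −0.13, Igll1 at −0.17 and Vpreb1 at −0.22, none of them called. Of 15 lymphoid transcription factors, 4 were called higher in males and 0 in females. These were Foxo1, Lef1 and Bach2, chosen here after their values were seen, and Bcl11a.

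The sexes of the fetal libraries also differed in the share of uniquely counted reads that lay outside genes, 39.9% to 49.0% in males and 34.1% to 38.1% in females, with no overlap. With that share as a covariate, chosen after seeing the data, edgeR called 9 genes in place of 600 and 0 of the 8 B lineage genes, 784 genes having an unadjusted p under 0.05. Pax5 then had a log2 of 0.48 ± 0.31 (adjusted p = 0.925). Sex and this share cannot be told apart in these libraries.

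**Figure D3:**
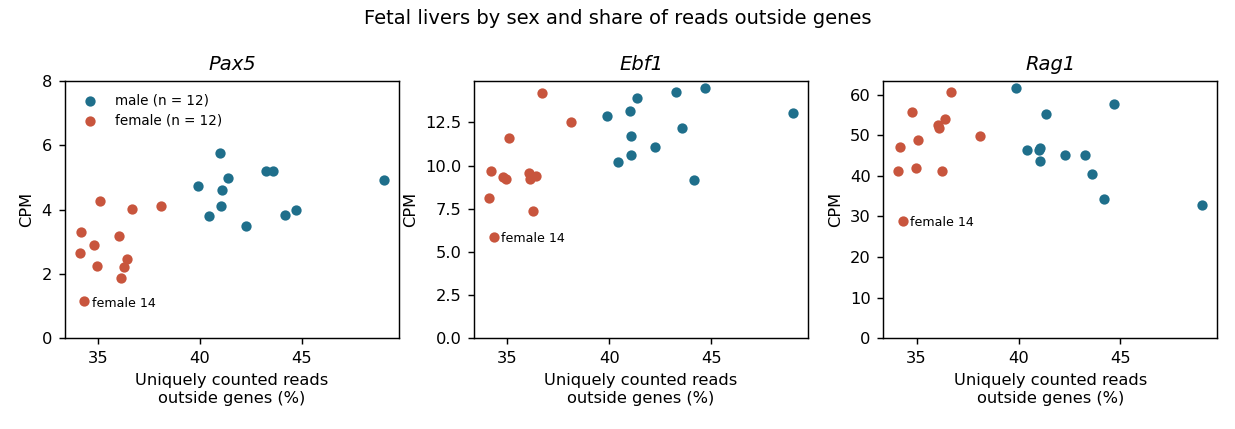
CPM of Pax5, Ebf1 and Rag1 in each fetal liver against the percent of uniquely counted reads outside genes, males in blue and females in red (12 each). The sexes separate fully along the horizontal axis at 38.1% to 39.9%, Pax5 is at 3.50 CPM or more in males, and female fetal liver 14 is lowest in all 3 panels.

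In adult liver none of the 8 genes had enough reads to be tested for sex. With the filter removed, edgeR called 1518 of 17265 genes tested. Of the 8 genes, 6 were tested and Blnk alone was called, at −1.28 ± 0.35 (adjusted p = 0.00728), higher in females. It was at 0.868 to 5.50 CPM in females, median 2.31, on 2 to 8 reads, with reads in 12 of 12, and at 0 to 2.31 CPM in males, median 0.999, with reads in 10 of 12. The ranges overlapped. The test of the difference between stages, the interaction of stage and sex over 48 livers, called Blnk among the 8 genes, where 33.7% of 13026 genes were called at an adjusted p under 0.1. The interaction log2 of Blnk was −1.46 ± 0.37 (edgeR, adjusted p = 0.00252), and −1.54 ± 0.37 without female fetal liver 14. The interaction includes the fetal contrast of the sexes, which cannot be told apart from the share of reads outside genes. Adult libraries also differed by sex in the share of reads placed at several positions, 42.2% to 61.1% in males and 32.7% to 43.2% in females. The part of either share in the interaction was not tested. Reads of Dntt, the polymerase that adds bases at V(D)J joins, were also few, with 7 reads over the fetal and 188 over the adult livers, 138 of them in females; it did not pass the filter of the stage comparison.

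The 8 genes varied together across fetal livers to different degrees. Each spread more than counting error alone, from a CV of 17.8% for Rag1 (5.12% from counting) to 32.1% for Pax5 (18.3% from counting). Of 28 pairs, correlated as log2(CPM + 0.5) over 24 livers with a two-sided permutation test and adjusted over the 28, 14 passed an adjusted p of 0.05 by Pearson's r and 11 by Spearman's rho. The share of pairs that would pass among all genes is not given here. Whether these counts are particular to the B lineage genes was therefore not tested. Cd79b and Rag1 had r = 0.88 and rho = 0.86, with adjusted permutation p-values of 7e-05 and 0.00014 and raw p-values of 1e-05, the smallest that these permutations can give. Their r was 0.77 without the 2 livers farthest from the median of Cd79b, 0.90 within males and 0.91 within females. Ebf1 and Pax5 had r = 0.87 and rho = 0.84 with the same p-values, and r = 0.79 without the 2 farthest livers. Within males r was 0.63 (adjusted permutation p = 0.0803) and within females 0.88 (0.00238).

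Pax5 and Vpreb1 did not pass, with r = 0.15 and rho = −0.08 (adjusted permutation p = 0.519 and 0.769), and r was −0.24 without female fetal liver 14. Within females alone r was 0.80, and 0.45 without the 2 females farthest from the median of Vpreb1; female fetal liver 14 was the lowest female for both genes. Blnk passed with 0 of the 7 others by Pearson's r, its highest being 0.41 with Ebf1 (adjusted permutation p = 0.0885), a pair that passed by rho (0.50, adjusted permutation p = 0.0368). Without female fetal liver 14, where Blnk was high and the others low, the r of Ebf1 and Blnk was 0.79 (adjusted permutation p = 9.33e-05) and that of Rag1 and Blnk 0.63 (0.00468). In all, 5 of the 7 pairs with Blnk passed by r without that library and 0 with it, while those with Vpreb1 (r = 0.07) and Igll1 (r = 0.34) passed in neither case.

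**Figure D4:**
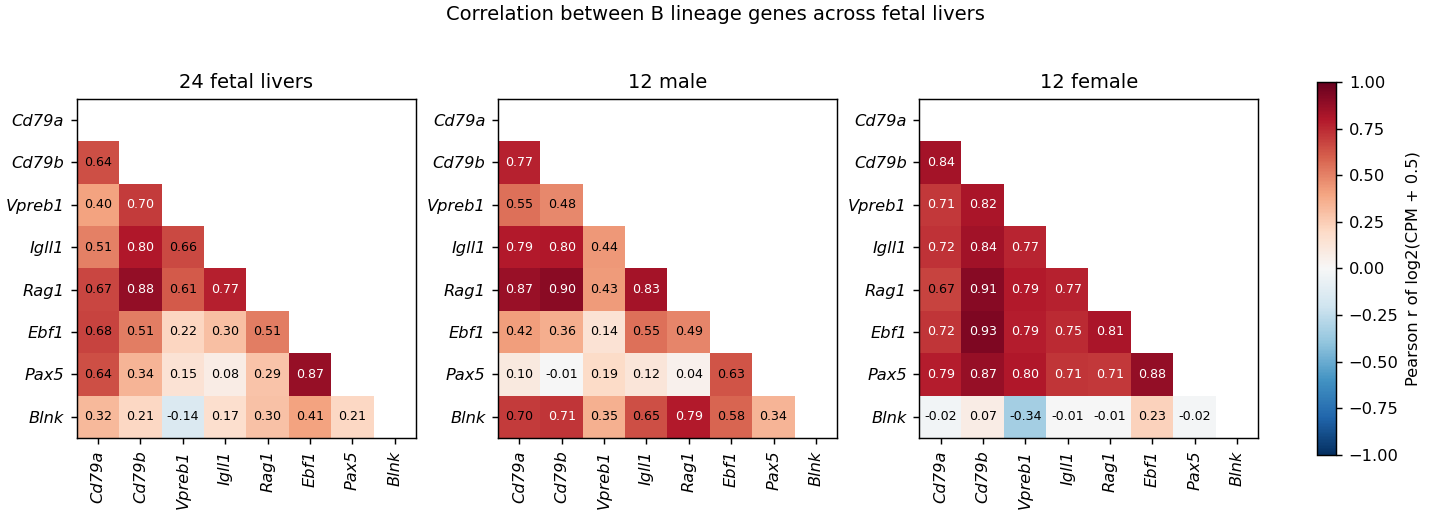
Pearson's r of log2(CPM + 0.5) between the B lineage genes over 24 fetal livers, over 12 males and over 12 females, with the value in each cell. Cd79b and Rag1 reach 0.88, 0.90 and 0.91 in the 3 panels, and the row of Blnk runs from −0.34 (Vpreb1) to 0.23 (Ebf1) in the female panel, which includes female fetal liver 14.

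Among the genes whose level followed the sum of the 8 most closely over 24 fetal livers, out of the 10966 genes that averaged 5 CPM or more, were Vpreb3 (r = 0.89), Chst3 (0.86), Irf4 (0.84) and Afm (0.83). Irf4 is a factor of pre-B and plasma cells, Chst3 a chondroitin sulfotransferase, and Afm encodes afamin, a plasma protein of hepatocytes. The list was chosen by r, so no test is given, and all points share the libraries and their depth. Without female fetal liver 14 the ranks of Vpreb3, Chst3, Irf4 and Afm were 1, 3, 11 and 6. The log2 (adult/fetal) was −3.59 ± 0.18 for Irf4 and 2.01 ± 0.06 for Afm.

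Set against the other stages on library totals, which do not correct for composition, fetal liver had the highest median of each of the 8 genes. Rag1 had 0 reads in every embryo and every ES line, against 36.4 to 73.5 CPM in fetal liver. Ebf1 was the exception to a wide gap, with 4.04 to 13.1 CPM in the 4 ES lines (42 to 135 reads) against 7.39 to 17.7 CPM in fetal liver, and the ranges overlapped. Blnk overlapped too, at 2.1 to 4.24 CPM in ES lines and 2.89 to 9.13 CPM in fetal liver. Cd79b was at 2.03 to 3.47 CPM in ES lines, and Vpreb1 and Igll1 at 0.578 to 1.90 and 0.578 to 1.26 CPM, below every fetal liver. Embryos had 0 reads of Vpreb1, Igll1, Rag1, Ebf1 and Pax5, while Cd79a was seen in 3, Blnk in 2 and Cd79b in 1 of 12. The Blnk levels of those 2 embryos, 9.38 and 5.98 CPM, lay above and within the fetal range. The order of ES lines and adult liver was not tested, and the embryo libraries were made by another protocol.

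**Figure D5:**
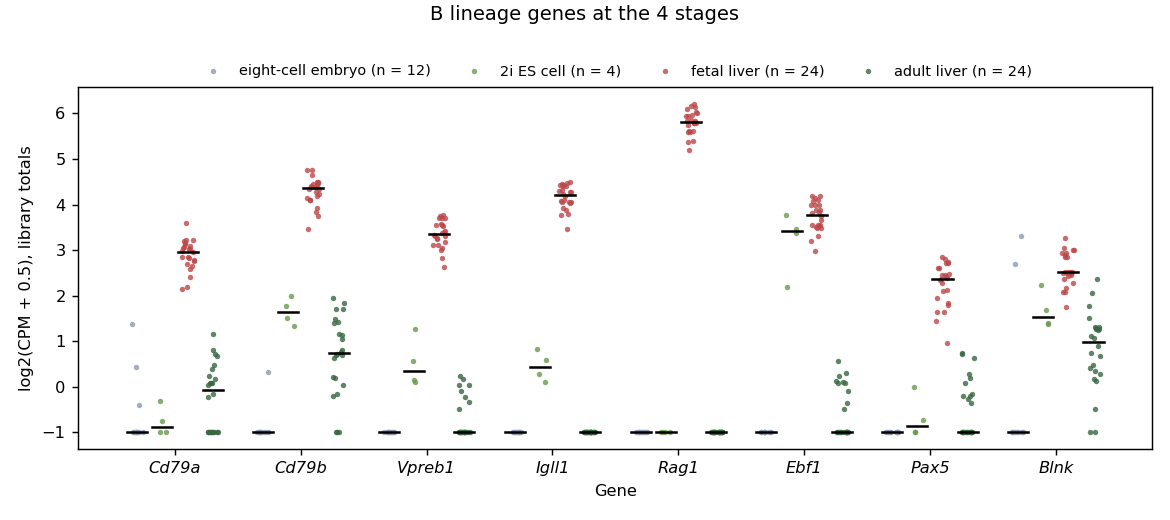
Level of each B lineage gene in 12 eight-cell embryos, 4 ES lines, 24 fetal livers and 24 adult livers, as log2(CPM + 0.5) on library totals, a point per library and a bar at the median. The fetal median is highest for each gene, the ES lines reach into the fetal range for Ebf1 and Blnk, and 1 embryo, at 9.38 CPM, lies above every fetal liver for Blnk.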

How the data were processed

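Raw read counts per gene were analysed for 64 mouse libraries. The authors deposited counts made by HTSeq (version and strand setting not given in the sources used here) after alignment to mm10 with TopHat 2.0.4, Bowtie2 2.1.0 and SAMtools 0.1.18 and removal of duplicate reads with Picard; values are whole numbers without normalization. The HTSeq summary lines were left out of library sizes, and the share of reads outside genes was taken from them. Groups were taken from the Stage and gender labels.

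Fits across all genes used edgeR 4.0.16 in R 4.3.3 (TMM, filterByExpr, robust quasi-likelihood F test, two-sided, sex as a covariate of stage). A gene was called at a Benjamini-Hochberg adjusted p under 0.1 and an absolute log2 above 0.5, and for the interaction at the adjusted p alone. The SE is the absolute log2 over the square root of F. CPM were computed with TMM factors, and log2 CPM with a pseudocount of 0.5. Correlations used 100000 permutations in Python 3.11.15 with scipy 1.17.1. DESeq2 1.42.0 was an alternative, beside other scalings, filters and subsets. The covariate for reads outside genes and the fits without female fetal liver 14 were chosen after seeing the data. P-values measure the spread between these livers. The main edgeR fits of stage, of sex within each liver stage and of the interaction were tested on simulated data with known changes. The simulated libraries shared the same composition, so the scaling between stages was not tested, nor were the alternative fits. The floor of 3 reads covers counting error only, since no molecular identifiers were used.

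The 8 genes and all lists were chosen with earlier results of these data known. Named list genes were the 3 called genes per list with the largest absolute log2 between fetal and adult liver, and the 5 genes most like the sum of the 8; exceptions are said in the text, and a few genes that this would name are left out. Positions come from GENCODE vM21 (GRCm38, the same assembly as mm10) and promoter windows from RefSeq (GRCm38.p6).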

Additional observations from a re-analysis of the deposited data

Results flagged for a closer look

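The stage by sex interaction of Blnk (log2 −1.46, edgeR adjusted p = 0.00252) is a difference between groups in the same contrast: log2 (male/female) was 0.17 in fetal liver and, without the filter on low counts, −1.28 in adult liver, where counts were 0 to 8 reads. The fetal part of this contrast cannot be told apart from the share of reads outside genes.

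Single embryos stood far from the other 5 of their sex. Blnk was at 9.38 CPM (50 reads) in male eight-cell embryo 1 and at 5.98 CPM (33 reads) in female eight-cell embryo 8, with 0 reads in the other embryos. Cd79a was at 2.1 CPM (14 reads) in male embryo 6 and at 0.858 CPM (5 reads) in female embryo 9. Cd79b was at 0.75 CPM (4 reads) in male embryo 1 and absent from the reads of the other 5. In 4 of these 5 cases the other 5 embryos all had 0 reads, so that any read in a single embryo would have stood apart; chance flags about 1 in 20 groups where values vary. These are values of single embryos and no test.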

How the results depend on the processing

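All 8 genes were called lower in adult liver with DESeq2, other size factors, library totals, no expression filter, no sex term, a prior count of 2, a threshold on the adjusted p alone, male livers alone, and without the 8 adult livers with few reads on genes or without female fetal liver 14. In female livers alone 7 of 8 passed the filter and 7 were called. Library totals moved the median log2 of all genes from −0.05 to −0.61 and the calls of all genes from 4079 higher and 4543 lower to 2368 and 6942, and with no filter the calls were 4897 and 7072. With a prior count of 2 the log2 was −2.73 for Cd79a, −3.82 for Vpreb1, −4.07 for Ebf1 and −2.49 for Pax5. In fetal liver, the adjusted p alone at 0.05 gave 2 of the 8 genes for sex (Ebf1 and Pax5) and 3816 genes in all, and reads outside genes as a covariate gave 0. In adult liver, DESeq2, no filter and 1 fit over the 48 livers each called 1 of the 8 genes, Blnk, where the filtered fit tested none. All genes called were 1434 of 17265, 1518 of 17265 and 1410 of 13026 tested, against 984 of 10372. Without the 8 adult livers the interaction of Blnk was −1.16 (edgeR adjusted p = 0.0535), and 2987 genes in all were called against 4384. Among correlations, 9 pairs passed within males, 21 within females and 16 without female fetal liver 14, against 14; the cause was not tested. Without the 2 farthest livers of each pair the median r within females was 0.48 against 0.76.

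Fetal and adult livers share replicate numbers but are different animals, and the deviations of same-numbered livers correlated between −0.09 and 0.05, with 0 of 24 pairs over 0.1. With the replicate block 8 of the 8 genes were called, and 9417 genes in all against 8622. Counting error is widest in the adult values, which rest on 0 to 11 reads per gene and liver.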

Other observations

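Vpreb3, which followed the 8 genes in fetal liver, was at 33.5 to 96.9 CPM (223 to 565 reads) in the 12 eight-cell embryos, above its 5.51 to 14.7 CPM in fetal liver on library totals. The embryo libraries were amplified by another protocol, and the levels were not tested against each other.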
